A study of Homo sapiens with 5 samples.

Results

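The genes described here are 9 that are recurrently mutated in pancreatic ductal adenocarcinoma or carry the transforming growth factor beta (TGF-beta) signal: BRAF, SMAD2, SMAD3, SMAD4, TGFBR1, TGFBR2, MYC, ARID1A and RNF43. They were taken by name. Of the 9, 8 had a probe assigned to them, out of 20043 genes with a probe in the array annotation. BRAF had none and was not analysed here. The 8 genes were read by 14 probes, of which 5 were detected on all 5 arrays, 4 on some of them and 5 on none.

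The study measured RNA on Illumina BeadChip arrays in BXPC3 and Miapaca, a pair of established human pancreatic adenocarcinoma cell lines, after small interfering RNA (siRNA) against LYNX1, a Ly6 family protein that binds nicotinic acetylcholine receptors. BXPC3 cells received either an siRNA to the LYNX1 open reading frame (ORF) or a control siRNA that targets no gene, each with 1 array. Miapaca cells received the ORF siRNA, an siRNA to the LYNX1 3′ untranslated region (3UTR), or the control siRNA, each with 1 array. All cultures were exposed for 72 h, and no array had a replicate. BXPC3 cells grew in RPMI-1640 and received 200 nM siRNA with 14 µl of Xtreme gene9. Miapaca cells grew in DMEM, and their siRNA dose is labelled as 60 pM, delivered by 4 µl of lipofectamine RNAiMAX. Line, medium, siRNA dose and transfection reagent therefore changed together and cannot be told apart. Transiently transfected pools of each line were used, so every group is a model of that line alone.

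In TGF-beta signalling the ligand binds TGFBR2, which recruits and phosphorylates TGFBR1, and TGFBR1 phosphorylates SMAD2 and SMAD3. These bind SMAD4 and enter the nucleus, where the complex switches on growth-inhibitory and matrix genes and its own inhibitor SMAD7. In the pancreas this pathway restrains epithelial growth, and SMAD4 and TGFBR2 are among the genes that ductal carcinomas lose. BRAF is a kinase at the top of the MAP kinase cascade, MYC a growth transcription factor downstream of it, ARID1A a DNA-binding subunit of a SWI/SNF chromatin remodeller, and RNF43 a ubiquitin ligase that removes Frizzled receptors for WNT from the cell surface. BXPC3 is known as a line with a homozygous deletion of SMAD4, and Miapaca as one that responds poorly to TGF-beta.

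Values are log2 intensities after background correction and quantile normalization over the 5 arrays. Clearly undetected probes had medians of 4.26 to 4.27 on an array, and the lowest detected signals were 4.42 to 4.58. Single undetected probes lay higher, such as an acinar marker at 5.42 on the Miapaca control array. That is within the range of the SMAD2 values given below. A probe was taken as detected at a detection p under 0.01. The brightest of a gene's probes stood for the gene, and levels were set against each other only within a probe. Between 16622 and 18205 of 48106 probes were detected on an array. Mean bead intensity before normalization was 361 and 366 for the ORF and control arrays of BXPC3, and 355, 343 and 463 for the ORF, 3UTR and control arrays of Miapaca, so the Miapaca control array was the brightest. Both LYNX1 probes were below the detection threshold on all 5 arrays, with a smallest detection p of 0.0228, so these arrays give no check of the knockdown.

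Of 5 epithelial markers, 3 were higher and 1 was lower in BXPC3 than in Miapaca in the fit described below. Over all genes 13.9% were higher and 13% lower in that fit. On its brightest probe EPCAM had bead means of 5216 and 4370 in BXPC3 and of 92.1, 89.6 and 102 in Miapaca, where that probe was not detected. Another EPCAM probe, detected also on 1 of the 3 Miapaca arrays, gave a line difference of 4.08 log2. CDH1, the epithelial cadherin, was likewise detected on both BXPC3 arrays and on no Miapaca array. The epithelial keratins KRT8, KRT18 and KRT19 were detected on all 5 arrays. Of 23 markers of fibroblasts, endothelium, blood, acinar and endocrine cells, 5 were detected on any array, and COL1A2, a fibrillar collagen chain, had bead means of 98.1 and 130.1 in BXPC3 against 2413, 1962 and 1997 in Miapaca. The part of these differences in the results below was not tested.

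TGFBR2 was detected in BXPC3 only and SMAD4 in Miapaca only. TGFBR2, the receptor that binds the ligand, was at 10.32 on the ORF array and 9.56 on the control array of BXPC3. In Miapaca the same probe stood at 4.40 (ORF), 4.23 (3UTR) and 4.47 (control), and it was detected on none of these arrays. A second TGFBR2 probe gave 9.98 and 9.29 in BXPC3 against 4.29, 4.52 and 4.43 in Miapaca, where it too was not detected. Both probes put the 2 BXPC3 arrays far above the 3 Miapaca arrays, while another TGFBR2 probe stayed at background on all 5 arrays.

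SMAD4, the partner that the receptor-activated SMADs share, ran the other way. It was at 4.30 (ORF) and 4.21 (control) in BXPC3, below detection on both arrays, and at 8.52 (ORF), 8.36 (3UTR) and 9.09 (control) in Miapaca. In bead means this was 92.3 and 85.2 in BXPC3 against 391, 344 and 837 in Miapaca. All 3 Miapaca arrays were therefore high, and both BXPC3 arrays were at background.

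SMAD3, which transmits the TGF-beta signal into the nucleus, was measured on every array. It was at 10.34 (ORF) and 10.32 (control) in BXPC3, against 7.85 (ORF), 7.85 (3UTR) and 8.31 (control) in Miapaca. The BXPC3 arrays were the higher ones, and they lay within 0.03 of each other. SMAD2, the other receptor-activated SMAD of this branch, was at 5.21 and 5.29 in BXPC3 and at 5.19, 5.56 and 5.45 in Miapaca. SMAD2 was detected on all 5 arrays but only just above background, and its lines overlapped. A pair of further SMAD2 probes was not detected on any array. TGFBR1, the signalling receptor, was read by 1 probe at 4.26 to 4.70, below detection throughout, so its level could not be compared.

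ARID1A, the chromatin remodeller subunit, had the same order of lines as SMAD3. It was at 10.17 (ORF) and 10.11 (control) in BXPC3, against 7.67 (ORF), 7.93 (3UTR) and 7.62 (control) in Miapaca. Its second probe was at background on all 5 arrays. MYC was bright everywhere, at 12.27 and 12.41 in BXPC3 and at 11.84, 11.17 and 11.61 in Miapaca. Its second probe gave 11.60 and 11.77 in BXPC3 against 10.81, 10.00 and 10.79 in Miapaca. Both MYC probes placed the 3UTR array of Miapaca lowest and the control array of BXPC3 highest. RNF43 was detected only on the control array of BXPC3, at 5.13 with a detection p of 0.000407. Its other values were 4.46 on the BXPC3 ORF array and 4.18 to 4.21 in Miapaca, all below detection.

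**Figure D1:**
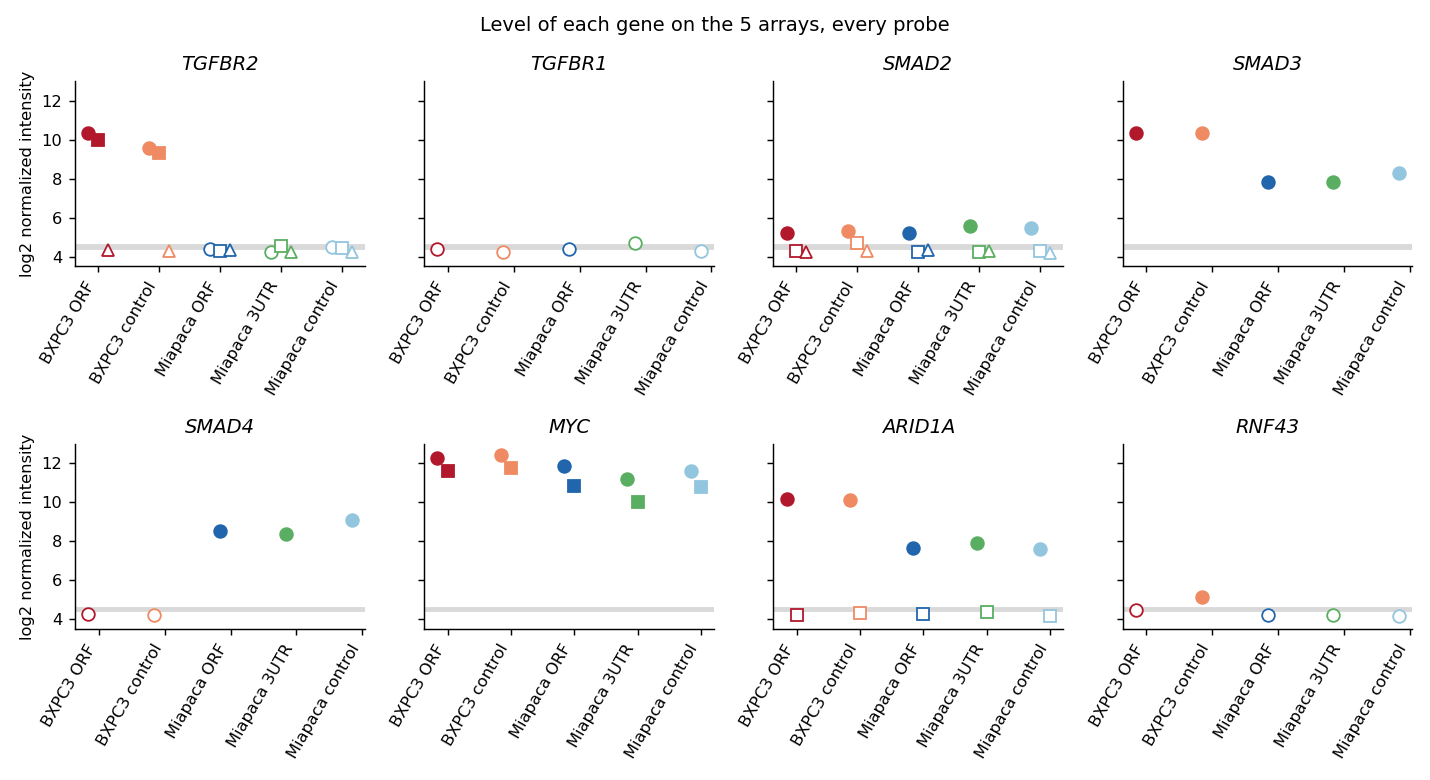
Log2 normalized intensity (vertical axes) of each gene on the 5 arrays (horizontal axes), with filled marks for detected values and open marks for values below detection, and a separate mark shape for each probe of a gene. The grey band marks the lowest detected signals of the arrays, and TGFBR2 and SMAD4 show mirrored patterns, with TGFBR2 filled in BXPC3 only and SMAD4 in Miapaca only.

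The size of the line difference was taken from a linear model of all 5 arrays with a term for line and a term for LYNX1 siRNA, fitted in limma over 12842 genes with Benjamini-Hochberg adjustment. It had 2 residual degrees of freedom, it treats the ORF and 3UTR siRNA as the same treatment, and its p-values measure only the spread between these arrays, which may be technical. Line differences were common, with 26.9% of the genes past an adjusted p of 0.05 (13.9% higher and 13% lower in BXPC3). Of the 7 members tested, 4 passed (TGFBR2, SMAD4, ARID1A and SMAD3). Of the 7, 3 (SMAD4, TGFBR2 and RNF43) had entered the fit only through the line that detected them. The count of 4 is not read as a result, since it holds SMAD4 and TGFBR2. The members were also chosen with earlier results of these data known. TGFBR2 and SMAD4 stood at ranks 84 and 190 of the 12842 genes by size of difference.

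TGFBR2 was 5.61 ± 0.29 higher in BXPC3 than in Miapaca on the log2 scale (SE, adjusted p = 1.76e-05). Set against the lowest detected signal of the Miapaca arrays, this was at least 42.5-fold under the correction and offset used. SMAD4 fell by 4.46 ± 0.28 on the log2 scale in BXPC3 relative to Miapaca (SE, adjusted p = 3.66e-05), which was at least 18.4-fold lower. In these bulk cultures fewer cells expressing a gene and less RNA per cell cannot be told apart. ARID1A was 5.34-fold higher in BXPC3 (2.42 ± 0.25 log2, adjusted p = 0.000430), and SMAD3 4.88-fold higher (2.29 ± 0.25 log2, adjusted p = 0.000652). Without the BXPC3 ORF array both lost the call, at 2.48 with an adjusted p of 0.0662 for ARID1A and at 2.01 with an adjusted p of 0.0827 for SMAD3.

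The other 3 did not pass. MYC differed by 0.78 ± 0.29 log2 between BXPC3 and Miapaca (adjusted p = 0.0862), and its second probe by 1.11. The MYC difference passed without the Miapaca ORF array, at 0.95 with an adjusted p of 0.0131. It passed also with no background correction, at 0.76 with an adjusted p of 0.0473, and on the authors' own normalized values, at 0.78 with an adjusted p of 0.0481. RNF43 differed by 0.55 ± 0.27 log2 (adjusted p = 0.176) and SMAD2 by −0.16 ± 0.25 log2 (adjusted p = 0.674).

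The ORF and the control siRNA, which both lines received, gave the 4 called genes the same order of lines. With the ORF siRNA, 4 of the 6 members compared were past 2-fold between BXPC3 and Miapaca, where 29.8% of all genes were. TGFBR2 was at least 55.6-fold higher in BXPC3 and SMAD4 at least 16.3-fold lower, while SMAD3 was 5.64-fold and ARID1A 5.63-fold higher. With the control siRNA the same 4 genes, of 7 compared, were past 2-fold, where 29.1% of all genes were. There TGFBR2 was at least 33.6-fold higher, SMAD4 at least 25.5-fold lower, ARID1A 5.59-fold higher and SMAD3 4.02-fold higher in BXPC3. MYC was higher in BXPC3 by 0.43 log2 with the ORF siRNA and by 0.80 log2 with the control siRNA. Each of these rests on 1 array against 1 and has no test, and the counts of 4 are not read as a result. Over the alternatives TGFBR2 ran between 3.77 and 5.92 log2 with the ORF siRNA and between 3.08 and 5.48 with the control siRNA. SMAD4 ran between −4.22 and −2.17 log2 (ORF) and between −5.09 and −2.69 (control).

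**Figure D2:**
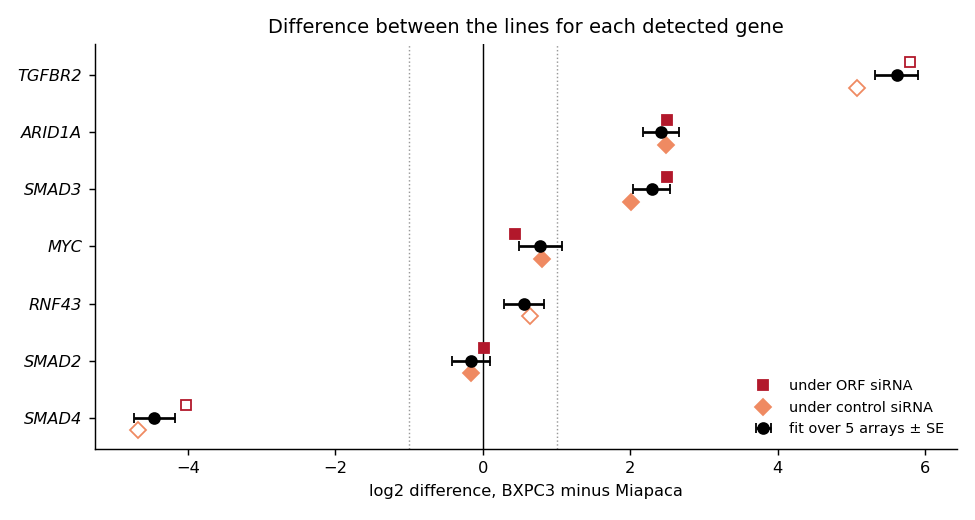
Log2 difference of BXPC3 minus Miapaca (horizontal axis) for the 7 genes detected on at least 1 array (vertical axis), from the ORF siRNA arrays (squares), the control siRNA arrays (diamonds) and the fit over 5 arrays with its SE (circles and bars). Open marks are bounds for genes that 1 line did not detect, and dotted lines mark 2-fold. TGFBR2 lies near 5.61 and SMAD4 near −4.46, with ARID1A and SMAD3 at 2.42 and 2.29.

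A few genes followed SMAD4 or TGFBR2 closely over the 5 arrays, by the root mean square difference of log2 values centred on each gene's mean, among 12842 genes. Nearest to SMAD4 were PTMS at 0.10, GAS1 at 0.14 and VEGFC at 0.24 log2 units. Nearest to TGFBR2 were MOCOS at 0.15, PLEK2 at 0.17 and AADAC at 0.19. These 5-array patterns are set mostly by the step between the lines.

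Around the receptors and SMADs, the upstream genes differed in both directions. Of 15 ligand and latency genes, 11 were tested for the line difference, and 5 were higher and 1 was lower in BXPC3. Over all genes 13.9% were higher and 13% lower. Of the 6 called genes, 3 had their brightest probe detected in 1 line only, so their count and the list median are not read as a result. GDF15, a stress-induced member of the superfamily, was 7.23 ± 0.33 log2 higher, with bead means of 5479 and 3831 in BXPC3 against 114, 98.6 and 123 in Miapaca, 2 of them above detection. Of the BMP branch ligands, BMP6 was higher by 2.22 ± 0.29 log2 and BMP2, not detected in Miapaca, at least 5.21-fold higher. BMP7, not detected in BXPC3, was at least 12.3-fold lower there. The median over the 11 was 0.79 log2, against −0.06 over all genes. TGFB1, the ligand best known in this cancer, was not detected on any array. That does not show that its RNA was absent. A probe can stay at background where other probes of the gene are bright, as for TGFBR2 in BXPC3.

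Of 8 receptor genes tested, 2 were higher and 2 lower in BXPC3, where 13.9% of all genes were higher and 13% lower. Of the 4 called, 2 had their brightest probe detected in 1 line only, so the count is not read as a result. Besides TGFBR2, the type I receptor ACVR1 was higher by 1.40 ± 0.25 log2. Both called co-receptors, which present ligand to the signalling receptors, were lower. TGFBR3 fell by 3.22 ± 0.28 log2 in BXPC3 relative to Miapaca, with bead means of 189 and 193 in BXPC3 and of 1312, 1063 and 1171 in Miapaca. ENG, not detected in BXPC3, was at least 6.48-fold lower there. Among 11 SMAD and cofactor genes, SMAD3 was the 1 that was higher, and SMAD4 and the acetyltransferase EP300 were the 2 that were lower, EP300 by 2.00 ± 0.27 log2.

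The inhibitor and target genes that passed went in both directions between the lines. Of 12 inhibitor genes tested, 5 were higher and 2 lower in BXPC3, where 13.9% of all genes were higher and 13% lower. Nothing is read from the count of 7, since 3 of these genes had their brightest probe detected in 1 line only. PMEPA1, which sequesters receptor-activated SMADs, was higher by 2.04 ± 0.30 log2 on its brightest probe, which 1 of the 3 Miapaca arrays detected, and by 0.72 on another. The SMAD corepressor SKIL, not detected in Miapaca, was at least 3.03-fold higher, and the ubiquitin ligase NEDD4L was higher by 1.31 ± 0.24 log2. BAMBI, a decoy receptor not detected in BXPC3, was at least 4.97-fold lower there.

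Of 19 TGF-beta and SMAD target genes tested, 10 were higher and 4 lower in BXPC3, with a median of 1.25 log2. Over all genes 13.9% were higher and 13% lower, with a median of −0.06 log2. PMEPA1, SKIL and SMAD7 stand in both the target and the inhibitor list. Neither BIK, a pro-apoptotic BCL2 family gene, nor THBS1, which encodes thrombospondin, was detected in Miapaca, and they were at least 23.1-fold and at least 16.1-fold higher in BXPC3. TGFBI, a matrix protein named for its induction by TGF-beta, was higher by 3.93 ± 0.25 log2, with bead means of 2272 and 2163 in BXPC3 and of 207, 189 and 312 in Miapaca. ID3, an inhibitor of basic helix-loop-helix factors and a target of the BMP branch, was the opposite case and fell by 4.48 ± 0.26 log2 in BXPC3 relative to Miapaca. Nothing is read from the count of 14, since 6 of these genes had entered the fit only through the line that detected their brightest probe. These target genes are also regulated by other pathways.

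**Figure D3:**
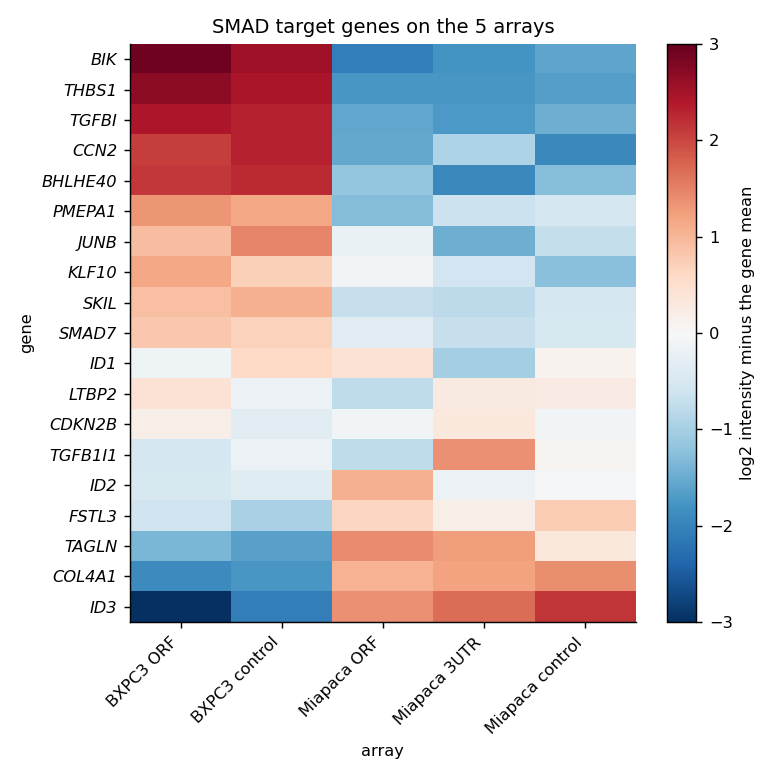
Log2 intensity minus the gene's own mean over the 5 arrays (colour) for the 19 TGF-beta and SMAD target genes tested (rows) on each array (columns). Genes from BIK to SMAD7 are high on both BXPC3 arrays, and ID3, COL4A1, TAGLN and FSTL3 are high on the 3 Miapaca arrays.

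Next to BRAF, 13 genes of the RAF and MAP kinase cascade were tested, and 2 were higher and 3 lower in BXPC3. Over all genes 13.9% were higher and 13% lower. MAP2K1, which encodes the kinase MEK1, was higher by 1.78 ± 0.31 log2, with bead means of 2071 and 1706 in BXPC3 and of 433, 585 and 1090 in Miapaca. SPRED1, an inhibitor of the cascade, was higher by 1.40 ± 0.27. PEBP1, also called RAF kinase inhibitor protein, and MAPK3, which encodes ERK1, fell by 1.44 and 1.19 log2 in BXPC3 relative to Miapaca.

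Of 12 output genes of ERK signalling, 7 were higher and 3 lower, with a median of 1.23 log2. Over all genes 13.9% were higher and 13% lower, with a median of −0.06 log2. The list was chosen with earlier results of these data known, so its count is not read as a result on ERK signalling. The ERK phosphatases DUSP5 and DUSP6, which ERK signalling induces, were higher in BXPC3 by 4.92 ± 0.37 and 4.25 ± 0.26 log2. DUSP6 was above detection on 2 of the 3 Miapaca arrays, and its second probe gave 1.77. IER3 and EGR1, immediate early genes, were higher by 4.75 ± 0.43 and 2.03 ± 0.43 log2. The 3 lower genes were SPRY4 and SPRY2, feedback inhibitors that ERK signalling induces, and the ETS factor ETV5. SPRY4 fell by 1.81, ETV5 by 1.41 and SPRY2 by 1.24 log2 in BXPC3 relative to Miapaca. DUSP5 had bead means of 4924 and 3973 in BXPC3 and of 291, 165 and 291 in Miapaca.

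Beside the MYC lists, 13.9% of all genes were higher and 13% lower in BXPC3. Of 21 ribosome biogenesis and growth genes known as MYC targets, 0 were higher and 1 was lower in BXPC3, with a list median of −0.34 log2. That gene was EIF4E, which encodes the cap-binding translation factor, and on its brightest probe, not detected in BXPC3, it was at least 2.48-fold lower there. A second EIF4E probe, detected on 1 BXPC3 array and near background on all 5, differed by 0.35 log2. Of 10 MYC partners and antagonists, 2 were higher and none lower. MXD1, which competes with MYC for its partner MAX, was higher by 4.14 ± 0.27 log2 and had bead means of 1406 and 1242 in BXPC3 against 165, 137 and 164 in Miapaca. MNT, another MAX-binding repressor, also passed (adjusted p = 0.0238), with bead means of 365 and 281 in BXPC3 and of 204, 175 and 230 in Miapaca.

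Of 21 SWI/SNF subunits tested, ARID1A and 1 further subunit were higher in BXPC3 and 5 were lower. Over all genes 13.9% were higher and 13% lower. SMARCD3, above detection on 1 of the BXPC3 arrays, PHF10 and the core subunit SMARCB1 fell by 1.94, 1.08 and 1.05 log2 in BXPC3 relative to Miapaca. Their list median was −0.19 log2.

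Among 15 genes of the RNF43 and WNT receptor list, 4 were higher and 2 lower in BXPC3. For this list and the next 2, the shares over all genes were 13.9% higher and 13% lower. The WNT receptors FZD6 and LRP5 were higher by 2.77 ± 0.29 and 1.60 ± 0.24 log2. A second LRP5 probe, above detection on 1 of the 3 Miapaca arrays, gave 0.59 log2. FZD4 and FZD2, also Frizzled receptors, fell by 2.50 and 1.53 log2 in BXPC3 relative to Miapaca. ZNRF3, the ubiquitin ligase related to RNF43, was detected on all 5 arrays and differed by 0.15 ± 0.25 log2 (adjusted p = 0.702). Of 11 core and target genes of the WNT pathway, 2 were higher and 2 lower, and 2 of these 4 had their brightest probe detected in 1 line only. The transcription factor LEF1, above detection on 1 of the 3 Miapaca arrays, was higher by 1.46 ± 0.26 log2, and the related factor TCF7L1, not detected in BXPC3, was at least 2.65-fold lower there. Of 15 other genes mutated in this cancer, 2 were higher and 3 lower, and 2 of these 5 had their brightest probe detected in 1 line only. KDM6A, a histone demethylase not detected in Miapaca, was at least 6.59-fold higher. MAP2K4, a stress kinase lost in some ductal carcinomas and not detected in BXPC3, was at least 8.63-fold lower there.

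**Figure D4:**
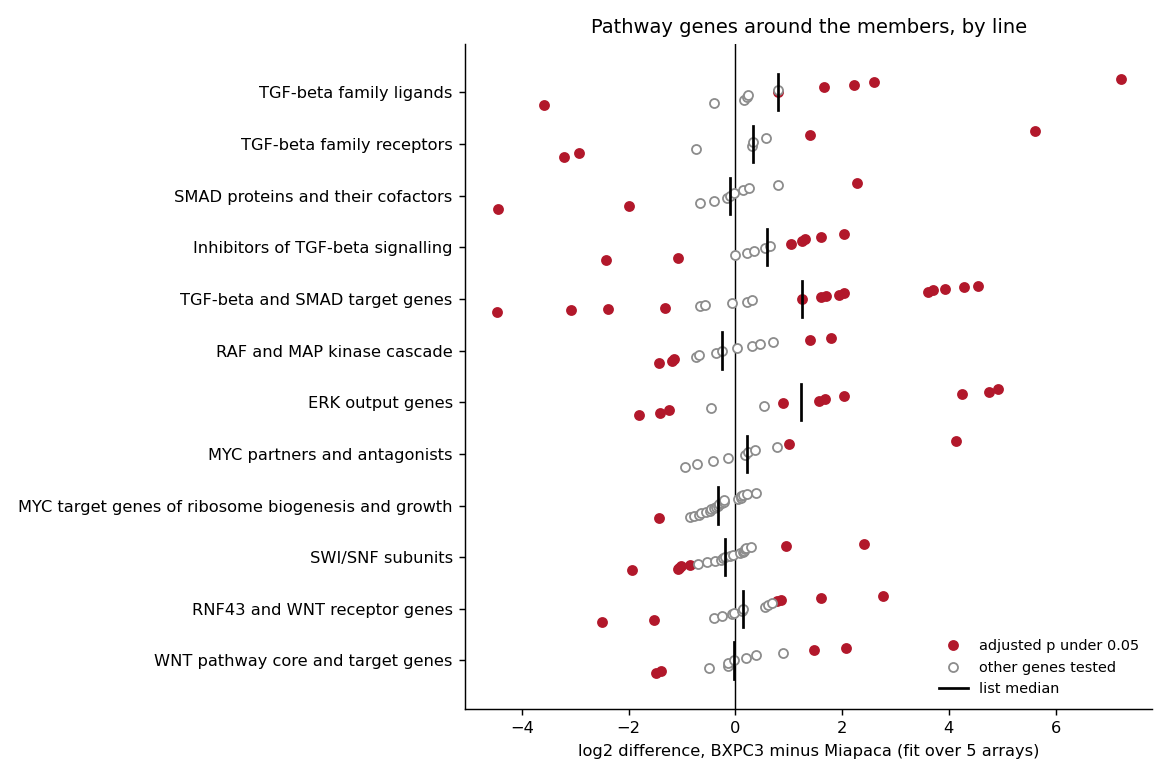
Log2 difference of BXPC3 minus Miapaca from the fit over 5 arrays (horizontal axis) for every tested gene of 12 lists around the 9 genes (rows). Red points passed an adjusted p of 0.05, open points did not, and the bars mark list medians, which run between −0.34 for the MYC targets and 1.25 for the SMAD targets.

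No member passed the test for LYNX1 siRNA, and none was past 2-fold in any siRNA comparison. In the fit over 5 arrays, limma called 0 of the 7 members and 0 of the 12842 genes for LYNX1 siRNA (0% of genes, smallest adjusted p = 0.894). At an unadjusted p under 0.05 there were 547 genes, or 4.26%, and none of the members. The member estimates for siRNA minus control were −0.33 ± 0.28 log2 for SMAD4, −0.25 ± 0.25 for SMAD3, 0.24 ± 0.29 for TGFBR2 and −0.12 ± 0.29 for MYC. None of the tested genes of the lists above passed this test. With this number of arrays, a difference of the size of these standard errors was not detectable.

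In BXPC3 none of the 6 members compared was past 2-fold with the ORF siRNA, where 1.09% of all genes were. TGFBR2 was the member farthest above its control, at 1.69-fold the control (0.76 log2) on the brightest probe and 1.61-fold (0.69 log2) on the second. In bead means these probes gave 1244 and 1007 with the ORF siRNA against 781 and 670 with the control. In this comparison 2.24% of all genes were as high or higher. RNF43 was at least 1.56-fold lower, since the ORF array did not detect it, and its signal lay close to background on both. MYC was at −0.14 and −0.17 on its 2 probes, SMAD2 at −0.08, ARID1A at 0.06 and SMAD3 at 0.03 log2. These values are from 1 array each and have no test.

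In Miapaca the ORF and 3UTR siRNA were each set against the same control array, so a deviation of that array enters both. None of the 5 members compared was past 2-fold with the ORF siRNA, where 10.6% of all genes were. The 3UTR siRNA likewise put none of the 5 past 2-fold, where 8.86% of all genes were. SMAD4 was 1.48-fold lower with the ORF siRNA (−0.57 log2), a difference that 16.9% of all genes matched or passed downward. With the 3UTR siRNA it was 1.66-fold lower (−0.73 log2), which 10.2% matched or passed. SMAD3 was at −0.46 log2 with either siRNA, which 21.2% (ORF) and 20.7% (3UTR) of all genes matched or passed. The mean bead intensity of the control array, 463, was above the 355 (ORF) and 343 (3UTR) of the siRNA arrays, and the sizes depended on scaling. Scaling each array to its median over all probes put SMAD4 at −1.11 and −1.34 and SMAD3 at −1.03 and −1.07 log2, on a scale where all genes had medians of −0.40 and −0.46.

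MYC, ARID1A and SMAD2 had different signs or sizes with the 2 siRNAs in Miapaca, which was not tested. MYC was at 0.23 and 0.02 log2 on its 2 probes with the ORF siRNA, against −0.44 and −0.79 with the 3UTR siRNA. Its bead means on the brighter probe were 3429 with the ORF siRNA, 2096 with the 3UTR siRNA and 4378 with the control. ARID1A was at 0.05 (ORF) and 0.31 (3UTR) log2 and SMAD2 at −0.26 and 0.10. Under median scaling over all probes MYC was at −0.21 with the ORF siRNA, and ARID1A at −0.51 (ORF) and −0.31 (3UTR), so their signs depend on scaling. TGFBR2, TGFBR1 and RNF43 were below detection on all 3 Miapaca arrays.

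**Figure D5:**
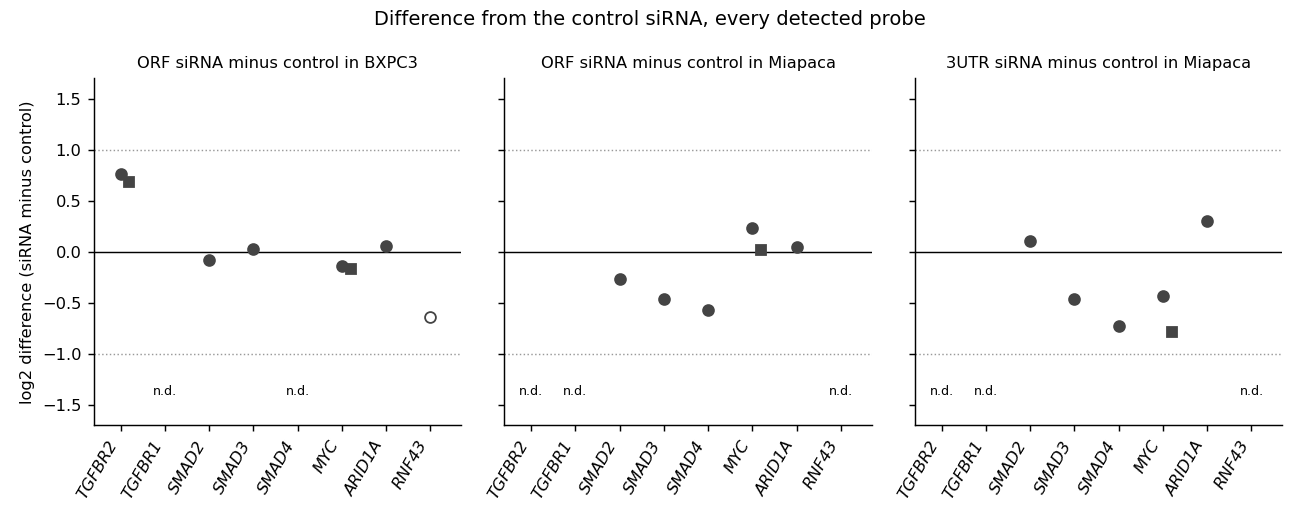
Log2 difference of siRNA minus control (vertical axes) for every detected probe of the 8 genes (horizontal axes), in 1 panel for each siRNA and line. Circles are brightest probes, squares second probes, the open mark a bound, n.d. marks genes not detected on either array, and dotted lines mark 2-fold, which no point reaches.

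Around them, single genes of the lists passed 2-fold. With the ORF siRNA in BXPC3 the 1 gene among all of these pathway lists was ID3, 2.09-fold lower. Its bead means there were 110 with the ORF siRNA and 144 with the control, close to background. In Miapaca, BMP7 was 3.45-fold higher with the ORF siRNA and 2.40-fold higher with the 3UTR siRNA. With the ORF siRNA the SMAD list held 2 genes past 2-fold, SMAD5 at 2.01-fold lower and TRIM33 at 2.04-fold lower, although a second TRIM33 probe was at 0.50 log2. KLF10, a TGF-beta-induced repressor, was 2.26-fold higher with the ORF siRNA, and its second probe was at 0.52 log2. The brightest KLF10 probe lay close to background, at bead means of 129 with the ORF siRNA and 113 with the control. The SMAD targets ID2 and TAGLN were 2.19-fold and 2.12-fold higher in that comparison, while their second probes were at −0.23 and −0.35 log2. ID2 too lay close to background, at bead means of 128 with the ORF siRNA and 114 with the control. In the 3UTR comparison the targets past 2-fold were TGFB1I1, 2.48-fold higher, CCN2, 2.03-fold higher, and ID1, a BMP target, 2.19-fold lower. A second CCN2 probe was at 0.08 log2 and a second ID1 probe at −0.68. The brightest CCN2 probe had bead means of 147 with the 3UTR siRNA and 135 with the control, close to background. The ligand GDF11 was 2.10-fold higher there, with a second probe at 0.28 log2. The SMAD target medians were 0.02 and −0.11 log2 with the ORF and 3UTR siRNA, close to 0.02 and 0.00 over all genes.

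Among the other lists in Miapaca, MXD4, an antagonist of MYC, was 3.62-fold higher with the ORF siRNA and 2.48-fold higher with the 3UTR siRNA. MGA, a MAX-binding repressor, was 2.68-fold lower with the ORF siRNA. MLX of the same list was 2.02-fold higher with the ORF siRNA, while its second probe was at −0.18 log2. The MYC target list held 1 gene past 2-fold in the ORF comparison, EIF4E at 2.09-fold lower, whose second probe was at −0.17 log2. In the 3UTR comparison it held 2, POLR1B, a subunit of RNA polymerase I, at 2.48-fold lower and ODC1, an enzyme of polyamine synthesis, at 2.17-fold lower. SMARCA4, a catalytic subunit of SWI/SNF, was 2.49-fold lower with the ORF siRNA, with bead means of 606 with the ORF siRNA, 1480 with the 3UTR siRNA and 2159 with the control. Also of SWI/SNF, SS18 was 2.00-fold lower with the ORF siRNA and SMARCC2 2.07-fold lower with the 3UTR siRNA. IER3 was 3.52-fold higher and FOSL1, an AP-1 gene induced by ERK, 2.56-fold lower with the ORF siRNA. DUSP6 was at least 2.08-fold lower with the 3UTR siRNA, whose array did not detect it. In the RAF and MAP kinase list, SPRED2 was 2.22-fold higher with the ORF siRNA and 2.65-fold higher with the 3UTR siRNA. MAP2K2 of that list was 2.21-fold higher with the ORF siRNA. MAP2K4 was 4.75-fold lower with the ORF siRNA, and its second probe was at −1.88 log2. FBXW7, a ubiquitin ligase subunit that targets MYC for degradation, was 2.24-fold higher with the ORF siRNA, while its second probe was at 0.26 log2. Of the WNT receptors in that comparison, FZD8 was 2.42-fold, FZD1 at least 2.28-fold and FZD10 at least 2.18-fold higher, and another FZD1 probe was at −0.33 log2. All 3 lay close to background, at bead means of 149, 123 and 118 with the ORF siRNA and 125, 108 and 101 with the control.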

How the data were processed

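RNA of 5 cultures was measured on 1 array each. The deposited table holds mean bead intensities, not normalized per the file headers, and detection p-values from the authors' scan. A second table deposited by the authors holds normalized intensities on a linear scale. The sources used here name neither the scanner software nor that normalization. The number of arrays limits the precision. Of 48107 probes, 1 was left out for a missing value. Intensities were corrected with neqc (normexp from the detection p-values, offset 16, quantile normalization, log2) in limma 3.58.1 under R 4.3.3, followed by Python 3.11.15 (pandas 2.3.3, numpy 2.4.6, matplotlib 3.10.9). In the platform annotation 30113 probes had 1 symbol, 8 had several and 17985 were not listed. RefSeq names updated 27 symbols, leaving 20043 genes.

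Genes with a detection p under 0.01 on 1 or more of the arrays compared were kept. Where 1 side lacked detection, its level was raised to that array's lowest detected signal if below it. The fold is then a bound (at least) under the correction and offset used. Single comparisons have 1 array a side and no p-value, and genes were counted at 2-fold. The fit over 5 arrays was lmFit and eBayes (2 residual and 5.33 prior degrees of freedom). It was also run on data simulated under its own assumptions, which cannot check those assumptions for these arrays. Chip and scan batches are not stated in the sources used. Named genes were all members, LYNX1, up to 4 genes of each list past 2-fold in a comparison and up to 4 called for the line, by size, and the 3 genes nearest to SMAD4 and to TGFBR2. TGFB1, ZNRF3, SPRY4, SPRY2 and ETV5 were named after their values were seen. Members and lists were chosen with earlier results of these data known. Alternatives were other normalizations, offsets, detection thresholds and probe summaries, the authors' values, and leaving out each array.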

Additional observations from a re-analysis of the deposited data

Results flagged for a closer look

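Genes whose ORF siRNA difference had opposite signs in the 2 lines were SMAD3 and MYC. SMAD3 was at 0.0252 log2 (ORF siRNA minus control) in BXPC3 and at −0.46 in Miapaca. MYC was at −0.14 log2 in BXPC3 and at 0.23 in Miapaca, where its second probe gave 0.02. With median scaling over all probes SMAD3 was at −0.06 in BXPC3 and MYC at −0.21 in Miapaca, so neither opposition of signs held under that scaling. Each value comes from 1 array against 1, and the difference between the lines was not tested. The siRNA dose and the transfection reagent differed between the lines too and cannot be told apart from them.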

How the results depend on the processing

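No direction of a called member difference reversed under any of the alternatives run. Each member value counted here is a gene in a comparison under a setting. Of these values, 384 were counted as unchanged and 41 moved the size of an untested difference. A further 3 brought MYC past the threshold for the line, and 2 took SMAD3 and ARID1A below it. For the fit over 5 arrays, unchanged refers to the call alone, and sizes did move there. The SMAD4 line difference from that fit ran between −4.874 and −2.501 log2 over the alternatives. Leaving out 1 array in turn, 2 to 5 members were called for the line, with 2 remaining without the BXPC3 ORF array, and all genes called ran between 430 and 4558, against 3454 with all arrays. For LYNX1 siRNA 0 members were called without any of the arrays, and between 0 and 95 genes in all, with 95 called without the Miapaca 3UTR array and 16 without the Miapaca ORF array. With no array left out, 5 members were called for the line with no background correction and on the authors' values. Median scaling over all probes put 2 members (SMAD3 and SMAD4) past 2-fold for the ORF siRNA in Miapaca and 2 for the 3UTR siRNA, against 0 and 0, and it moved the median of all genes by −0.40 and −0.46. Relative to those medians SMAD4 was at −0.71 and −0.88. Median scaling over the probes detected on all 5 arrays, chosen after seeing the data, left these counts at 0, with SMAD2 at 0.02 log2 for the ORF siRNA in Miapaca, and gave 5 members past 2-fold between the control arrays of the lines, RNF43 being the added one at 1.22.

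Counts of all genes past 2-fold depended on the correction. With the ORF siRNA in BXPC3 they were 123 as reported, 6 with no background correction, 7 on the authors' values and 15 with an offset of 50. With the ORF siRNA in Miapaca they were 1153 as reported, 345 with no background correction, 361 on the authors' values, 556 with an offset of 50 and 2010 with median scaling. With the 3UTR siRNA they were 963, 237, 251, 434 and 2065 in that order. Between the lines they were 3464 with the ORF siRNA and 3436 with the control siRNA, 1724 and 1755 with no background correction, and 1754 and 1807 on the authors' values. The split of higher and lower genes was 553 and 600 for the ORF siRNA in Miapaca, 188 and 1822 with median scaling over all probes and 1015 and 486 over detected probes. For the 3UTR siRNA it was 459 and 504, 85 and 1980, and 966 and 369. For the control arrays of the lines it was 1741 and 1695, 1317 and 2915, and 2497 and 1308. For the ORF siRNA in BXPC3 it was 71 and 52, 44 and 90, and 71 and 49. The causes were not tested. No paired analysis was possible because each group held 1 array, so no replicate numbers pair arrays, and the fit over 5 arrays already holds a term for line. Values near background (SMAD2, RNF43) are limited by signal over background. Among the list genes the same limit holds for KLF10, ID2, CCN2, FZD1, FZD8 and FZD10 in Miapaca and for ID3 in BXPC3.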
